A study of Mus musculus with 20 samples.

Results

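The genes described here are 32 mouse genes that work in meiotic prophase, taken by name from their known roles in the synaptonemal complex, the chromosome axis, meiotic cohesin, DNA break formation, strand exchange, crossover formation and the intercellular bridge. Of these, 31 had a row in each of the 3 deposited count tables, which list 24495 gene symbols at embryonic day 16.5 (e16.5) and embryonic day 18.5 (e18.5) and 24341 at postnatal day 2 (d2). Rnf212 is not analysed here. All 31 passed the filter on low counts at every age. The libraries hold total RNA of germ cells from male mice that carried no working copy of Tex15 (knockout, with 3 libraries each at e16.5 and e18.5 and 4 libraries at d2) or 1 working copy (heterozygous, with the same numbers of libraries), 20 libraries in all. The cells had a mixed strain background and were sorted by green fluorescence. The reporter behind the fluorescence, the Tex15 allele and whether replicates came from separate animals are not given in the sources used here, so every p-value below measures the spread between these samples only.

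Meiotic prophase is the stage at which homologous chromosomes are broken, paired along a protein axis, zipped together by the synaptonemal complex and joined by crossovers. In the female, germ cells enter it before birth. In the male, fetal germ cells rest in mitotic arrest as prospermatogonia and meiosis starts only after birth, while many of its genes are held down by DNA methylation and by repressor complexes. Tex15 is a germ cell gene needed for male fertility and for silencing of retrotransposons in these cells.

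Library depth was 14.3 to 31.5 M counts in total (M, mega), of which 7.78 to 14.2 M fell in genes. Levels are given as CPM, which divides a gene's counts by the gene counts of its library, scaled by TMM over all 20 libraries. Tex15 had 3.56 to 5.34 CPM in knockout and 1727 to 2103 CPM in heterozygous cells at e16.5, and 1.70 to 4.41 CPM in knockout and 1267 to 1770 CPM in heterozygous cells at e18.5. At d2 it had 2.04, 102, 2.47 and 2.61 CPM in knockout replicates 1 to 4, against 612 to 1013 CPM in heterozygous cells. Knockout replicate 2 at d2 therefore stood apart, with 799 Tex15 counts, and results at d2 are also given without it. Between genotypes Tex15 passed the edgeR test at e16.5 (adjusted p = 2.11e-10) and e18.5 (7.23e-11). With all libraries at d2 it did not (log2 fold change -4.97, adjusted p = 0.167). The 8 germ cell markers summed to 3899 to 6583 CPM in the embryonic knockout libraries and 4014 to 6351 CPM in the embryonic heterozygous ones, and to 3456 to 4797 CPM in knockout and 3223 to 3559 CPM in heterozygous libraries at d2. All 20 libraries held counts of the Y-linked genes Ddx3y, Eif2s3y, Kdm5d and Uty. Xist, the RNA that silences an X chromosome in female cells, was also counted in all of them, at 38.5 to 97.9 CPM in knockout and 56.3 to 93.5 CPM in heterozygous libraries, and its source was not tested. Insl3, a Leydig cell hormone, and the globin genes Hba-a1 and Hbb-b1 were at 0 in every library.

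The promoters of 3 genes are shown because these were the members that passed the test between genotypes below. Each line is the 250 bases before the most upstream transcription start of the gene in RefSeq (GRCm38.p6), read 5′ to 3′ on the strand of the gene. Other starts of a gene were not searched. Windows were found for 29 members, of which 28 had a row in the count tables. In 26 of the 29, bases after the start were found in a GENCODE transcript of the same gene. Sycp1 lies at chr3:102936101-102936350 on the minus strand, Sycp3 at chr10:88459337-88459586 on the plus strand and Syce2 at chr8:84871861-84872110 on the plus strand. Capitals mark the E2F core TCCCGC and the E-box CACGTG, searched on both strands.
Sycp1: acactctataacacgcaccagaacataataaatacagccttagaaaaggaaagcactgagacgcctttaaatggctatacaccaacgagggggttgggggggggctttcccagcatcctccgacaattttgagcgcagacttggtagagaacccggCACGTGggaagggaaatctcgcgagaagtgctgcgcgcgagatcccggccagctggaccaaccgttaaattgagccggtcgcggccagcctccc
Sycp3: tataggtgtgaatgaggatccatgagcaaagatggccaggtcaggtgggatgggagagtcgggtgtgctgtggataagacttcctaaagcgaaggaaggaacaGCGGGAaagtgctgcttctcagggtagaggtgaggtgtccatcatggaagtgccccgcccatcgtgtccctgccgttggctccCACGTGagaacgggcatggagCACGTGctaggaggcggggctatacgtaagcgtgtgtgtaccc
Syce2: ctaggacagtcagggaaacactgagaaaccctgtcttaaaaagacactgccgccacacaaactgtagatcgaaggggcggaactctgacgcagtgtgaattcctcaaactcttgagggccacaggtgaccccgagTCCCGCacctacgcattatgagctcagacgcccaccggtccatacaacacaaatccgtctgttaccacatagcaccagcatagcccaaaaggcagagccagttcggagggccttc
The Sycp1 window held an E-box at -94 to -89. The Sycp3 window held E-boxes at -64 to -59 and -43 to -38 and an E2F core, on the other strand, at -147 to -142. The Syce2 window held an E2F core at -115 to -110. E2F cores were in 13 of the 28 member windows found (46.4%), against 16.9% of 27025 windows over all genes. E-boxes were in 6 of 28 (21.4%), against 6.0% of all windows, and GGGCGG, the GC box, in 11 of 28 (39.3%), against 33.0%. The cyclic AMP response element TGACGTCA was in 0 of 28, against 1.6%. The member windows had a median of 12.5 CpG sites, against 6 over all genes. Each of these motifs holds a CpG, and the windows over all genes were not matched for CpG content. Members that were higher at d2 than at e18.5 in heterozygous cells had a median of 12 CpG sites and those that were lower had 13. A match of letters shows no binding.

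Transcripts of all 31 genes were counted in cells of both genotypes at every age. Divided by transcript length, Tex14, which builds the intercellular bridges between germ cells, was the most abundant at e16.5, with 227 ± 34.2 CPM per kb in knockout and 181 ± 51.0 CPM per kb in heterozygous cells (SD, n = 3), where it exceeded the next gene, Tex12, by less than its SD. At e18.5 Hormad1, an axis protein, came first in knockout cells with 131 ± 20.8 CPM per kb, against 147 ± 38.8 CPM per kb in heterozygous cells. Tex12, a central element protein, had 106 ± 28.1 CPM per kb in knockout cells, against 157 ± 29.3 CPM per kb in heterozygous cells, where it came first. In heterozygous cells both genes differed by less than their SD, as did Hormad1 and the next gene in knockout cells, Smc1b (123 ± 6.77 CPM per kb), by less than the SD of Hormad1. At d2 Smc1b, a meiotic cohesin subunit, came first with 254 ± 32.9 CPM per kb in knockout and 180 ± 45 CPM per kb in heterozygous cells (n = 4). In heterozygous cells the next places at d2 were held by Tex12 with 127 ± 21.5 and Sycp3 with 123 ± 5.04 CPM per kb, which differed by less than the SD of Tex12. At e16.5 the lowest levels in knockout cells were those of Mei1, at 2.73 ± 0.676 CPM per kb, and Msh5, at 2.77 ± 0.310 CPM per kb, which differed by less than their SD. In heterozygous cells it was Syce3, at 1.45 ± 0.536 CPM per kb, against 3.80 ± 1.44 CPM per kb in knockout cells. At d2 the lowest were Prdm9, at 2.15 ± 0.604 CPM per kb in knockout and 3.32 ± 0.614 CPM per kb in heterozygous cells, and Msh5, at 2.45 ± 0.684 CPM per kb in knockout and 3.54 ± 1.26 CPM per kb in heterozygous cells, again within their SD. Tex12, which works in the central element with Syce3, had 116 ± 18.7 CPM per kb in knockout and 145 ± 22.4 CPM per kb in heterozygous cells at e16.5. Syce3, with a transcript of 480 bases, rested on 64 counts in knockout and 20 in heterozygous cells at that age. The lengths came from GENCODE M21, while the counts used the mm9 genome and amplified RNA. Levels of different genes can therefore be compared only roughly.

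**Figure D1:**
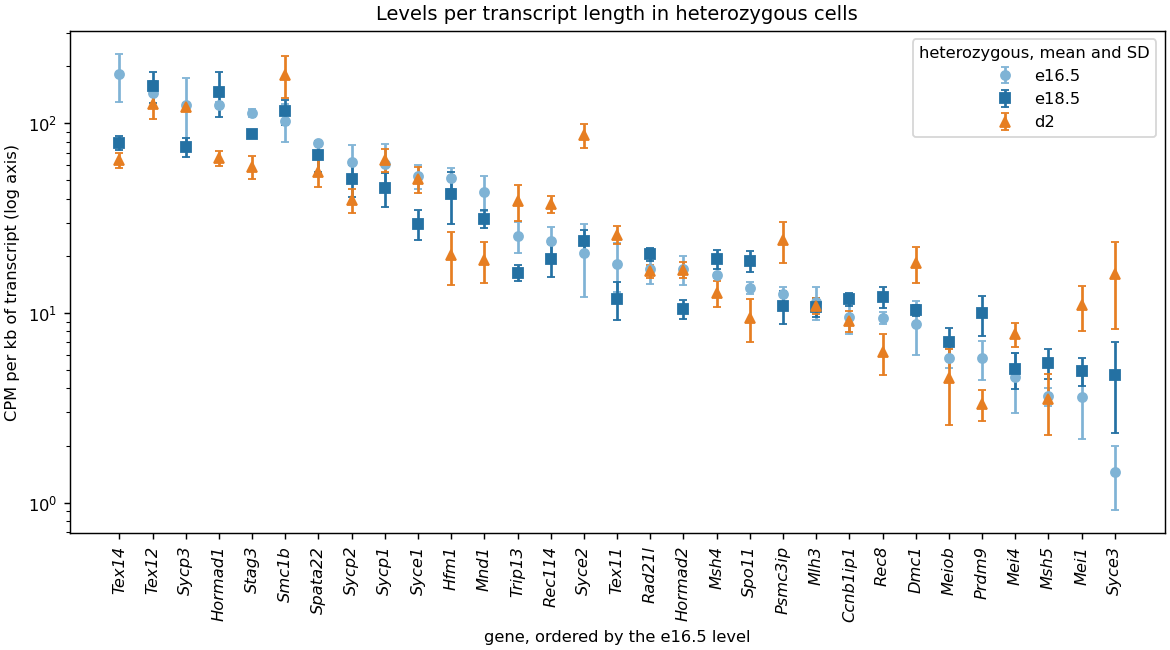
Mean level per kb of transcript (log axis, CPM per kb, bars: SD) of 31 genes in heterozygous cells at e16.5, e18.5 and d2, ordered by the e16.5 level. Tex14 leads at e16.5 (181), Tex12 at e18.5 (157) and Smc1b at d2 (180).

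At e16.5 no member passed the test between knockout and heterozygous cells (edgeR quasi-likelihood test, 0 of 31 at adjusted p under 0.05, where 0.00610% of all 16384 genes were called). The 1 gene called was Tex15. DESeq2 also called 0, and 2 members, Hormad1 and Syce3, had an unadjusted p under 0.05, against 7.73% of all genes. The median log2 fold change, knockout over heterozygous, was 0.01 over the members and -0.01 over all genes, with 16 members above 0 and 15 below. Hormad1, which marks unpaired axes, had 154, 164 and 151 CPM in knockout cells, against 182, 190 and 194 CPM in heterozygous cells. The groups did not overlap (log2 fold change -0.29 ± 0.12 SE, edgeR adjusted p = 0.636). Syce3 rested on 64 counts in knockout and 20 in heterozygous cells, with 2.61, 1.57 and 1.29 CPM in knockout and 0.576, 0.989 and 0.517 CPM in heterozygous libraries (log2 fold change 1.36 ± 0.58 SE, edgeR adjusted p = 0.641). Syce3 had 6, 9 and 5 counts in the heterozygous libraries and passed the filter only through the knockout group, so its difference is a description and no support for a change. On the scale of this age, Mnd1 and Syce3 were higher in every knockout library than in every heterozygous library, as were 6.19% of all genes, and 5 members were lower (Hormad1, Msh5, Psmc3ip, Rec8 and Spata22, against 6.63%). The 10 markers of stroma summed to 124 to 156 CPM in knockout and 143 to 301 CPM in heterozygous libraries at this age (0 of 9 tested called by edgeR, 7 with an unadjusted p under 0.05). Of the Sertoli cell markers 3 of 6 tested had an unadjusted p under 0.05 (median log2 fold change -0.78). So did 2 of 4 Leydig cell markers (median -1.52) and 1 of 8 germ cell markers (median 0.30). Over all marker lists it was 13 of 43, with 0 called by edgeR, against 7.73% of all genes. The part of these markers in the members' values was not tested.

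At e18.5 the members leaned lower in knockout cells, but 1 of 31 passed the test: Syce2, which forms the central element with Tex12, fell. Of all 18075 genes 2.33% were called, and 0.271% were called lower. Syce2 had 26.8, 24.2 and 22.6 CPM in knockout cells, against 37.3, 36.4 and 47.3 CPM in heterozygous cells. Every knockout library lay below every heterozygous one, with 24.6 ± 2.14 CPM in knockout and 40.3 ± 6.07 CPM in heterozygous cells (SD, n = 3), a log2 fold change of -0.72 ± 0.19 SE (edgeR adjusted p = 0.0456). In bulk samples fewer cells with a transcript and less of it per cell cannot be told apart. The Syce2 call ended without any 1 of the 6 libraries (adjusted p = 0.0686 to 0.184) and when all ages were fitted together (0.168), and held with DESeq2 (0.00815).

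The other members with an unadjusted p under 0.05 at e18.5 were Tex12, Sycp2, Sycp3, Syce1 and Spo11, 6 of 31 with Syce2 (11.3% of all genes). Tex12 had 94.7, 70.5 and 121 CPM in knockout cells, against 128, 123 and 171 CPM in heterozygous cells (log2 fold change -0.56 ± 0.18 SE, edgeR adjusted p = 0.129). It was called only without knockout replicate 3, its highest knockout library (0.0399), and not without any other single library. Sycp3, the main protein of the lateral element, had 73.1, 50.002 and 67.7 CPM in knockout cells, against 94.4, 75.2 and 87.7 CPM in heterozygous cells (adjusted p = 0.253). Spo11, the enzyme that makes the DNA breaks of meiosis, had 23.5, 19.5 and 24.2 CPM in knockout cells, against 29.4, 37.1 and 30.3 CPM in heterozygous cells (adjusted p = 0.240). In each of these 3 genes the groups did not overlap, as in Syce2 and in the crossover gene Mlh3. These 5 members compare with 7.52% of all genes that were lower in every knockout library, while 0 members were higher in every knockout library, against 9.27% of all genes. The log2 fold change was below 0 for 28 of 31 members, with a median of -0.16, against -0.01 over all genes, of which 48.7% were above 0. With total counts as library size the medians were -0.24 over the members and -0.11 over all genes. The 7 markers of macrophages and white blood cells summed to 89.7 to 109 CPM in knockout and 30.3 to 43.0 CPM in heterozygous libraries at e18.5. Of the 5 tested, Mrc1 and Adgre1 rose in knockout cells. Mrc1 made up most of the sum, with 72.9 ± 8.02 CPM in knockout and 21.8 ± 5.25 CPM in heterozygous cells. Csf1r (log2 fold change -0.68), Cd68 (0.11) and Ptprc (0.58) were not called. Cx3cr1 had a mean of 0.574 CPM in knockout and 0.836 CPM in heterozygous cells. Lyz2 had at most 0.262 CPM in knockout and 1.04 CPM in heterozygous libraries. Of the 9 stroma markers tested Dcn rose (edgeR adjusted p = 0.0434), with list sums of 237 to 258 CPM in knockout and 221 to 279 CPM in heterozygous libraries. Their part in the members' values was not tested.

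At d2 the knockout cells held more transcript of 2 core genes of the synaptonemal complex and its axis. Sycp1, the transverse filament that joins the paired axes, and Sycp3 rose, 2 of 31 members, where 2.80% of all 15343 genes were called and 2.03% were called higher. Sycp1 had 593, 281, 459 and 484 CPM in knockout replicates 1 to 4, against 260, 216, 220 and 185 CPM in heterozygous replicates. All knockout libraries lay above all heterozygous ones, and the lowest was the replicate with 102 CPM of Tex15. That replicate also had the lowest germ cell marker sum (3456 CPM) and the highest stroma marker sum (343 CPM) of the knockout libraries. The part of any of these in its Sycp1 value was not tested. The means were 454 ± 129 CPM in knockout and 220 ± 30.6 CPM in heterozygous cells (SD, n = 4), a log2 fold change of 1.04 ± 0.17 SE (edgeR adjusted p = 0.00222). Leaving out that library gave 1.21 (adjusted p = 2.63e-05). Sycp3 had 252, 200, 192 and 226 CPM in knockout cells, against 137, 136, 148 and 137 CPM in heterozygous cells. Again the groups did not overlap, with 217 ± 27.6 CPM in knockout and 140 ± 5.74 CPM in heterozygous cells, a log2 fold change of 0.63 ± 0.12 SE (edgeR adjusted p = 0.00569, and 0.00598 without knockout replicate 2). With total counts of genes and repeats as library size, the median log2 fold change of all genes was -0.17 and the Sycp3 call ended (adjusted p = 0.0631), while Sycp1 remained called (0.00719).

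Other proteins of the axis did not pass the test at d2 with all libraries. Sycp2, which binds Sycp3 in the lateral element, had 349, 229, 330 and 349 CPM in knockout cells, against 262, 212, 242 and 186 CPM in heterozygous cells (log2 fold change 0.47 ± 0.14 SE, edgeR adjusted p = 0.0855). Its groups overlapped through knockout replicate 2, without which the adjusted p was 0.0130. Hormad1 had 149, 113, 133 and 141 CPM in knockout cells, against 102, 102, 106 and 86.2 CPM in heterozygous cells, with no overlap (log2 fold change 0.43 ± 0.13 SE, edgeR adjusted p = 0.0964, and 0.0457 without knockout replicate 2). Hormad2, its paralogue, had a log2 fold change of -0.02 ± 0.22 SE, with 22.5 ± 3.85 CPM in knockout and 22.8 ± 2.12 CPM in heterozygous cells.

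Among the cohesin subunits, Smc1b, the meiotic partner of the ring protein Smc3, had 1110, 829, 1096 and 1077 CPM in knockout cells, against 681, 862, 885 and 493 CPM in heterozygous cells. Its groups overlapped through knockout replicate 2 (log2 fold change 0.49 ± 0.15 SE, edgeR adjusted p = 0.0989, and 0.0454 without that library). Stag3, the subunit shared by the meiotic cohesins, had 339, 295, 339 and 296 CPM in knockout cells, against 261, 254, 278 and 199 CPM in heterozygous cells, with no overlap (adjusted p = 0.137). The kleisins that close the ring had values below or at the heterozygous level, with Rec8 at 9.54 ± 1.77 CPM in knockout and 13.6 ± 3.25 CPM in heterozygous cells (adjusted p = 0.393) and Rad21l at 27.4 ± 7.30 CPM in knockout and 27.6 ± 2.14 CPM in heterozygous cells (adjusted p = 0.988).

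No member that opens or repairs breaks passed the test at d2. Dmc1, the recombinase of meiosis, had 43.5 ± 13.5 CPM in knockout and 40.6 ± 8.67 CPM in heterozygous cells (edgeR adjusted p = 0.881). Prdm9, the methyltransferase that places the breaks, had 6.45, 4.96, 8.98 and 9.33 CPM in knockout cells, against 14.1, 9.18, 10.5 and 12.2 CPM in heterozygous cells, and the highest knockout library overlapped the lowest heterozygous one (adjusted p = 0.323). Of the 5 break formation genes, the 6 genes grouped under strand exchange, among which Trip13 was counted, and the 6 crossover genes none was called at d2. Tex11, an X-linked crossover gene, was the 1 with an unadjusted p under 0.05 among them (106 ± 8.55 CPM in knockout and 84.1 ± 8.97 CPM in heterozygous cells, adjusted p = 0.216). Tex14 had 378 ± 22.3 CPM in knockout and 305 ± 27.1 CPM in heterozygous cells (adjusted p = 0.155).

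In all, 9 of 31 members had an unadjusted p under 0.05 at d2, each with a higher mean in knockout cells, against 16.2% of all genes in either direction. Besides those above, Tex12 was among them (154 ± 47.8 CPM in knockout and 114 ± 19.2 CPM in heterozygous cells, edgeR adjusted p = 0.247). Every knockout library lay above every heterozygous library in 6 members (Hormad1, Stag3, Sycp1, Sycp3, Tex11 and Tex14), where 5.55% of all genes did, and below in 0, against 4.37% of all genes. The median log2 fold change was 0.15 over the members, 19 of them above 0, and -0.02 over all genes. With total counts as library size the median was -0.02 over the members and -0.17 over all genes. Without knockout replicate 2 the test called 5 members, Hormad1, Smc1b, Sycp1, Sycp2 and Sycp3, and DESeq2 on all libraries called 4, the same genes without Smc1b. The 8 germ cell markers summed to 3456 to 4797 CPM in knockout and 3223 to 3559 CPM in heterozygous libraries at d2. Of these Dazl rose, with 2424 ± 649 CPM in knockout and 1584 ± 129 CPM in heterozygous cells (edgeR adjusted p = 0.0349). That call ended with total counts as library size. The other germ cell markers were not called (list median log2 fold change 0.08). The 10 stroma markers summed to 220 to 343 CPM in knockout and 168 to 262 CPM in heterozygous libraries at d2, with 0 of 10 called by edgeR and 3 at an unadjusted p under 0.05. The 8 Sertoli cell markers summed to 47.4 to 64.1 CPM in knockout and 66.7 to 75.7 CPM in heterozygous libraries. Of the 6 tested only Sox9 was called, and it fell (edgeR adjusted p = 0.0189, and 0.0601 to 0.0678 without replicate 1 or 3 of either genotype). Its mean was 9.76 CPM in knockout and 23.3 CPM in heterozygous cells. Inha (log2 fold change 0.69), Kitl (0.37), Dhh (0.01), Wt1 (-0.16) and Sox8 (-0.32) were not called (list median -0.08). The part of these marker lists in the members' values was not tested.

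**Figure D2:**
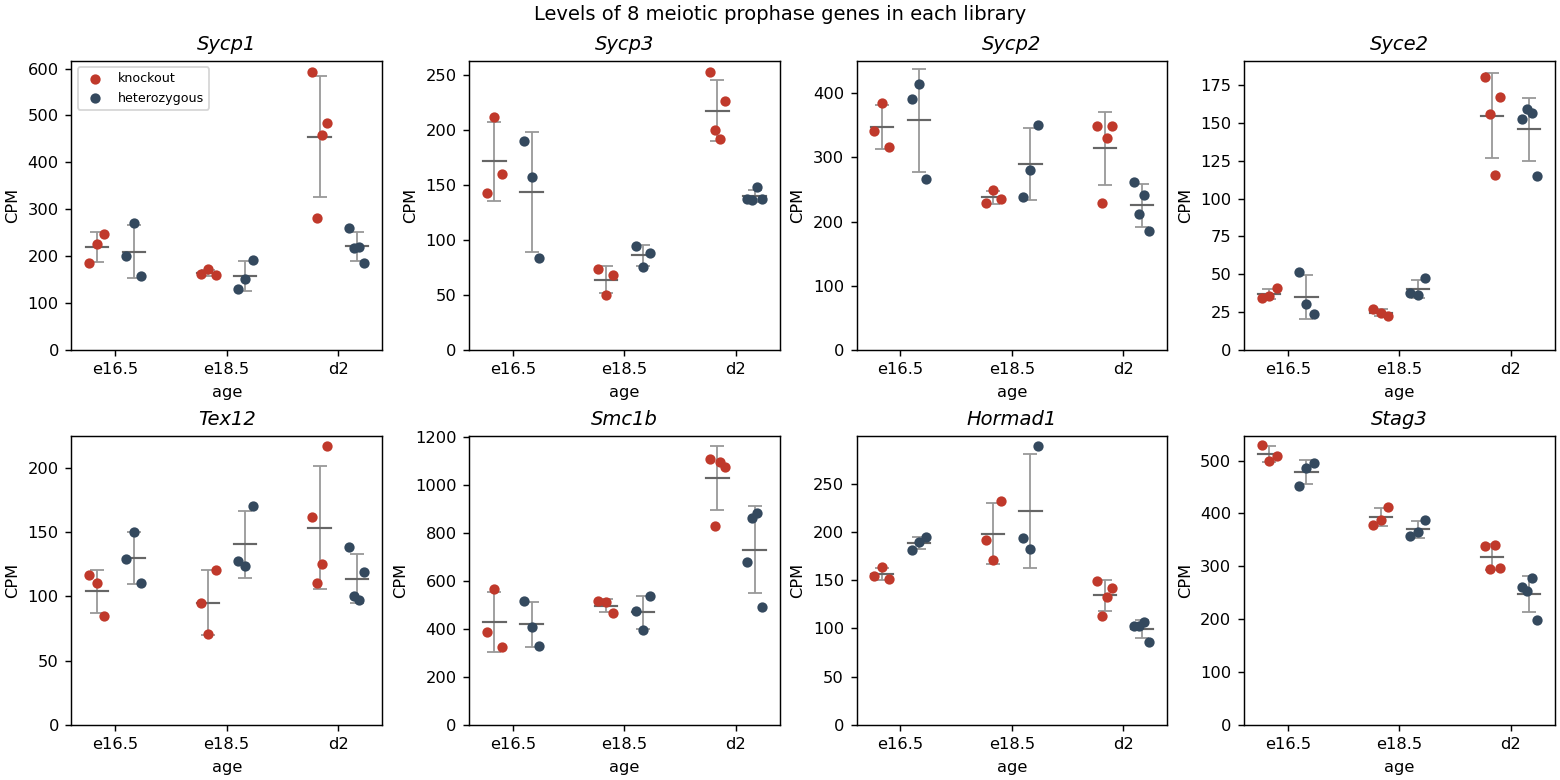
CPM of 8 genes in each library (points), with the mean and SD per group, knockout left of heterozygous at e16.5, e18.5 and d2. At d2 the 4 knockout libraries lie at 281 to 593 CPM of Sycp1 and the 4 heterozygous ones at 185 to 260 CPM.

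**Figure D3:**
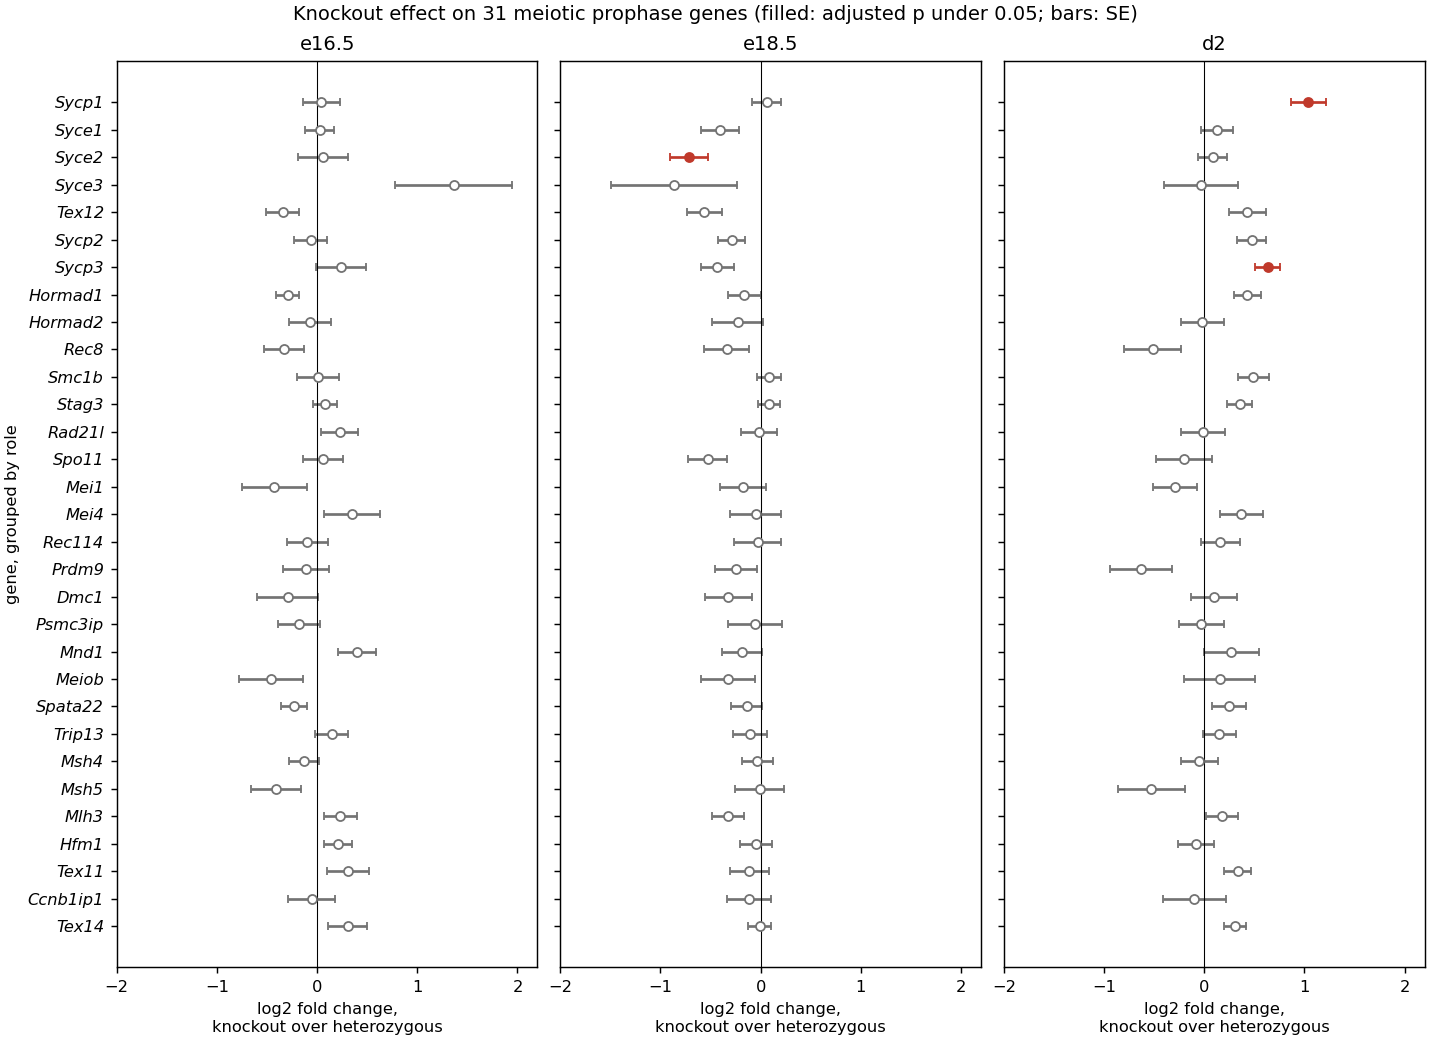
Log2 fold change, knockout over heterozygous, of 31 genes at each age, grouped by role (bars: SE, filled points: adjusted p under 0.05). No gene is filled at e16.5, Syce2 (-0.72) is filled at e18.5, and Sycp1 (1.04) and Sycp3 (0.63) are filled at d2.

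Whether the knockout effect differed between ages was tested in a joint fit of all libraries, in which the comparisons share libraries of an age. Between d2 and e18.5 the difference in log2 fold change was 1.07 ± 0.27 SE for Sycp3 (edgeR adjusted p = 0.0689), 0.98 ± 0.28 for Sycp1 (0.104) and 1.00 ± 0.29 for Tex12 (0.114). None of the 31 members passed, against 0.526% of 18619 genes, while 8 had an unadjusted p under 0.05 (13.5% of all genes) and DESeq2 called 2, Sycp1 and Sycp3. Without knockout replicate 2 of d2, edgeR called 3, Sycp1, Sycp2 and Tex12. Between d2 and e16.5 again 0 members passed, against 0.800% of all genes, with 4 at an unadjusted p under 0.05 (11.6% of all genes). DESeq2 called 1, Sycp1, and so did edgeR without knockout replicate 2. Between e18.5 and e16.5 both tools called 0 members, against 0.0967% of all genes by edgeR, and 4 had an unadjusted p under 0.05 (6.39% of all genes).

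The level of the members also changed with age. Each age was deposited in a table of its own, and that of d2 has partly different gene symbols. Age and table therefore cannot be told apart in any of these comparisons. Between e16.5 and e18.5 most of the called changes were decreases. The median log2 fold change in knockout cells was -0.26 over the members, 11 of them above 0 and 20 below, and 0.09 over all genes. In heterozygous cells it was 0.11 over the members, 16 of them above 0 and 15 below, and 0.04 over all genes. In knockout cells 12 of 31 members fell (17.7% of all genes) and 1, Msh5, rose (17.5% of all genes). In heterozygous cells 7 fell (10.2% of all genes) and 2, Prdm9 and Syce3, rose (7.63% of all genes). Syce3 rested on 20 counts in heterozygous cells at e16.5, so its rise is a description and no support for a change. All 7 that fell in heterozygous cells also fell in knockout cells, 58.3% of the 12: Hormad2, Stag3, Syce1, Sycp3, Tex11, Tex14 and Trip13. Germ cell markers fell over the same interval, 7 of 8 in knockout cells, with 0 higher (median log2 fold change -1.15), and 5 of 8 in heterozygous cells, with 1, Dazl, higher (median -0.72). In knockout cells 6 of 10 stroma markers rose (median 1.32) and 3 of 8 Sertoli cell markers rose (median 1.11), with 0 lower in either list. In heterozygous cells 1 stroma marker rose and 1 fell (median 0.20), and 0 of 8 Sertoli cell markers passed the edgeR test (median 0.41). The part of these markers in the members' changes was not tested.

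Tex14 showed the steepest decrease. It had 375, 364 and 386 CPM at e18.5 and 1071, 1249 and 924 CPM at e16.5 in knockout cells, a log2 fold change of -1.53 ± 0.15 SE (edgeR adjusted p = 1.1e-07). In heterozygous cells it had 411, 347 and 372 CPM at e18.5 and 1082, 906 and 602 CPM at e16.5 (log2 fold change -1.20 ± 0.15 SE, adjusted p = 6.72e-06), so the ages did not overlap in either genotype. Syce1, a central element protein, had 32.6 ± 6.08 CPM at e18.5 and 79.3 ± 2.70 CPM at e16.5 in knockout cells, and 43.2 ± 7.59 CPM at e18.5 and 76.8 ± 11.1 CPM at e16.5 in heterozygous cells (edgeR adjusted p = 9.63e-06 in knockout and 0.00212 in heterozygous cells). Sycp3 had 63.6 ± 12.1 CPM at e18.5 and 171 ± 35.8 CPM at e16.5 in knockout cells, and 85.8 ± 9.78 CPM at e18.5 and 143 ± 54.7 CPM at e16.5 in heterozygous cells (adjusted p = 1.62e-05 in knockout and 0.0138 in heterozygous cells). In heterozygous cells only the calls of Tex14 and Syce1 held when any 1 library was left out. The number of members called, 9 in all, was 3 without e16.5 replicate 1, 2 without e16.5 replicate 2, 4 without e18.5 replicate 1, 3 without e18.5 replicate 2 and 5 without e18.5 replicate 3. In knockout cells 9 of the 12 decreases held in all 6 such fits. The Sycp2 call ended without e16.5 replicate 2, that of Syce2 without replicate 2 or 3 of either age, and that of Hfm1 without any 1 library other than e16.5 replicate 2. The increase of Msh5 ended without e16.5 replicate 2 or e18.5 replicate 1.

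Between e18.5 and d2 members changed in both directions, at shares to be read against those of all genes. In knockout cells 17 rose (25.3% of all genes) and 8 fell (29.7%). In heterozygous cells 14 rose (24.1% of all genes) and 8 fell (27.0%). The 14 increases in heterozygous cells were all among the 17 in knockout cells (82.4%), and 7 decreases were shared, 87.5% of each list. The median log2 fold change was 0.53 over the members and -0.11 over all genes in knockout cells, and -0.30 over the members and -0.08 over all genes in heterozygous cells. With total counts as library size it was 0.81 over the members and 0.18 over all genes in knockout cells, and 0.05 over the members, with the sign turned, and 0.26 over all genes in heterozygous cells. Of 8 Sertoli cell markers 2 rose and 0 fell in knockout cells (median 0.22) and 4 rose and 0 fell in heterozygous cells (median 0.57). Of 8 germ cell markers 3 rose and 3 fell in knockout cells (median -0.30), and 1 rose and 3 fell in heterozygous cells. Of 10 stroma markers 2 rose and 2 fell in knockout cells and 1 rose and 1 fell in heterozygous cells, and of 7 macrophage and white blood cell markers 2 rose and 3 fell in knockout cells and 1 rose and 2 fell in heterozygous cells. The part of these markers in the members' changes was not tested.

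The synaptonemal complex genes were among the increases. Syce2 had 181, 156, 116 and 167 CPM at d2 in knockout cells, against 22.6 to 26.8 CPM at e18.5, and 153, 160, 156 and 115 CPM at d2 in heterozygous cells, against 36.4 to 47.3 CPM at e18.5. The ages lay far apart in both genotypes, with log2 fold changes of 2.66 ± 0.22 SE in knockout cells (edgeR adjusted p = 2.12e-10) and 1.86 ± 0.21 in heterozygous cells (5.57e-08). Syce3 had 8.28, 7.12, 9.37 and 5.55 CPM at d2 in knockout cells, against 0.567, 1.34 and 1.83 CPM at e18.5. In heterozygous cells it had 11.9, 9.81, 4.15 and 4.96 CPM at d2, against 3.29, 2.43 and 1.04 CPM at e18.5 (log2 fold changes 2.60 in knockout and 1.76 in heterozygous cells, adjusted p = 0.00014 in knockout and 0.00368 in heterozygous cells). The e18.5 levels of Syce3 rested on 42 counts in knockout and 90 in heterozygous cells, so the size of its change is limited by depth. Syce1 rose by 1.32 ± 0.17 in knockout and 0.78 ± 0.17 in heterozygous cells on the log2 scale (adjusted p = 5.77e-07 in knockout and 0.000443 in heterozygous cells). Sycp1 rose by 1.47 ± 0.20 in knockout and 0.49 ± 0.20 in heterozygous cells (adjusted p = 1.73e-06 in knockout and 0.0404 in heterozygous cells). The heterozygous call of Sycp1 ended with DESeq2 and without e18.5 replicate 1 or 2 or d2 replicate 1, 2 or 3, at adjusted p up to 0.195. Tex12 rose in knockout cells (0.69 ± 0.21, adjusted p = 0.00666, and 0.0603 without e18.5 replicate 2), while in heterozygous cells its log2 fold change was -0.31 ± 0.20 (adjusted p = 0.214).

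On the axis, Sycp3 and Hormad2 rose and Hormad1 fell. Sycp3 gained 1.77 ± 0.20 on the log2 scale in knockout and 0.70 ± 0.20 in heterozygous cells (edgeR adjusted p = 7.98e-08 in knockout and 0.00399 in heterozygous cells). Hormad1 had 134 ± 15.8 CPM at d2 and 198 ± 31.4 CPM at e18.5 in knockout cells, and 99.3 ± 8.96 CPM at d2 and 222 ± 58.7 CPM at e18.5 in heterozygous cells (log2 fold changes -0.56 in knockout and -1.16 in heterozygous cells, adjusted p = 0.0019 in knockout and 3.57e-07 in heterozygous cells, the first 0.121 with total counts as library size). Trip13, the enzyme that strips Hormad proteins from paired axes, rose by 1.51 ± 0.19 in knockout and 1.25 ± 0.19 in heterozygous cells (adjusted p = 2.26e-07 in knockout and 3.99e-06 in heterozygous cells). Sycp2 had a log2 fold change of 0.40 ± 0.16 in knockout cells (adjusted p = 0.0400, with the call ended by DESeq2 and without 6 of 7 libraries) and -0.36 ± 0.16 in heterozygous cells (adjusted p = 0.0627).

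Among the cohesin subunits Smc1b rose and Rec8 fell in both genotypes. Smc1b had 829 to 1110 CPM at d2 in knockout cells, against 516, 511 and 466 CPM at e18.5, and 493 to 885 CPM at d2 in heterozygous cells, against 473, 396 and 537 CPM at e18.5. The ages overlapped in heterozygous cells but not in knockout cells (log2 fold changes 1.05 ± 0.20 in knockout and 0.64 ± 0.19 in heterozygous cells, edgeR adjusted p = 9.83e-05 in knockout and 0.00826 in heterozygous cells, the second 0.0620 without e18.5 replicate 2). Rec8 had 9.67, 11.9, 7.81 and 8.74 CPM at d2 in knockout cells, against 27.6, 15.4 and 19.9 CPM at e18.5. In heterozygous cells it had 16.0, 11.5, 10.1 and 16.7 CPM at d2, against 30.1, 26.1 and 23.4 CPM at e18.5, with no overlap in either genotype (log2 fold changes -1.14 in knockout and -0.97 in heterozygous cells, adjusted p = 0.000237 in knockout and 0.00119 in heterozygous cells). Stag3 fell by 0.31 ± 0.11 on the log2 scale in knockout and by 0.58 ± 0.11 in heterozygous cells (adjusted p = 0.0217 in knockout and 0.000129 in heterozygous cells), calls that ended in both genotypes with total counts as library size (0.889 in knockout and 0.138 in heterozygous cells). The knockout call of Stag3 also ended without e18.5 replicate 2 or 3 or d2 replicate 2 or 4. Rad21l was not called in either genotype (adjusted p = 0.206 in both).

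**Figure D4:**
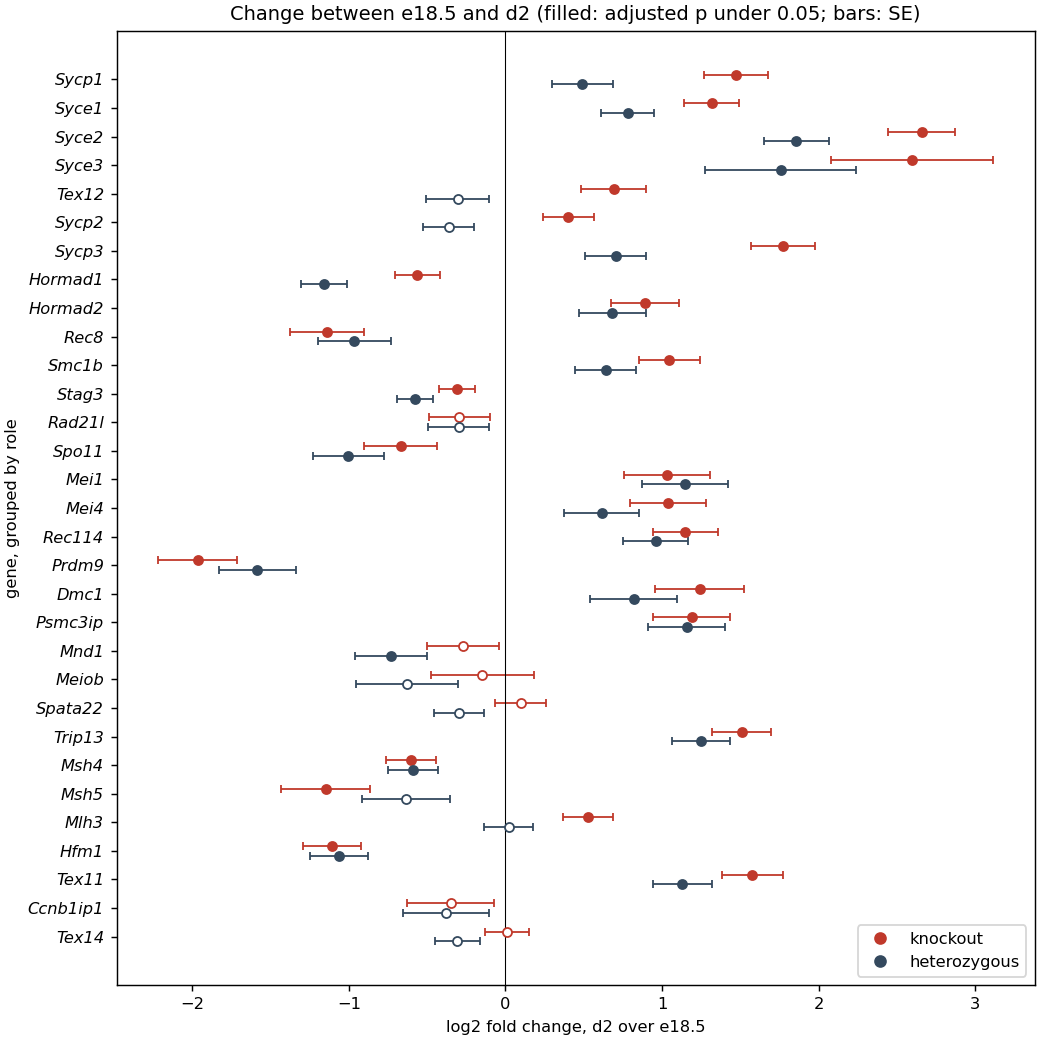
Log2 fold change, d2 over e18.5, of 31 genes grouped by role, knockout above heterozygous for each gene (bars: SE, filled points: adjusted p under 0.05). Syce2 lies at 2.66 in knockout and 1.86 in heterozygous cells, and Prdm9 at -1.96 in knockout and -1.59 in heterozygous cells.

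Of the break formation genes 3 rose and 2 fell in both genotypes. Mei1, Mei4 and Rec114, which are needed for Spo11 to cut, rose in both genotypes. Rec114 had 41.7, 27.1, 43.1 and 36.2 CPM at d2 in knockout cells, against 15.3, 19.3 and 15.4 CPM at e18.5, and 28.5, 36.0, 35.0 and 32.6 CPM at d2 in heterozygous cells, against 16.3, 14.1 and 20.6 CPM at e18.5. The ages did not overlap in either genotype (log2 fold changes 1.15 ± 0.21 in knockout and 0.96 ± 0.21 in heterozygous cells, edgeR adjusted p = 4.67e-05 in knockout and 0.0004 in heterozygous cells). Mei1 rose by 1.03 in knockout and 1.15 in heterozygous cells and Mei4 by 1.04 in knockout and 0.62 in heterozygous cells on the log2 scale (adjusted p = 0.0345 for Mei4 in heterozygous cells, and up to 0.156 without e18.5 replicate 1 or 2 or d2 replicate 1 or 3). Prdm9 had 6.45, 4.96, 8.98 and 9.33 CPM at d2 in knockout cells, against 22.7, 31.9 and 32.9 CPM at e18.5. In heterozygous cells Prdm9 had 14.1, 9.18, 10.5 and 12.2 CPM at d2, against 31.9, 27.9 and 43.6 CPM at e18.5. It thus fell in both genotypes (log2 fold changes -1.96 ± 0.25 in knockout and -1.59 ± 0.25 in heterozygous cells, adjusted p = 3.49e-07 in knockout and 7.21e-06 in heterozygous cells). Spo11 fell as well, with 14 ± 4.27 CPM at d2 and 22.4 ± 2.50 CPM at e18.5 in knockout cells (adjusted p = 0.0169), and 16.1 ± 4.05 CPM at d2 and 32.2 ± 4.21 CPM at e18.5 in heterozygous cells (0.000728). The knockout call of Spo11 ended without e18.5 replicate 1 or 3 or d2 replicate 1 or 3, and with total counts as library size.

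In strand exchange, Dmc1 had 43.5 ± 13.5 CPM at d2 and 18.4 ± 5.46 CPM at e18.5 in knockout cells, and 40.6 ± 8.67 CPM at d2 and 23.0 ± 1.51 CPM at e18.5 in heterozygous cells (edgeR adjusted p = 0.000629 in knockout and 0.0162 in heterozygous cells, the second 0.0621 without e18.5 replicate 2). Psmc3ip and Mnd1 form a complex that assists Dmc1. Psmc3ip rose by 1.19 in knockout and 1.16 in heterozygous cells on the log2 scale (adjusted p = 0.0002 in knockout and 0.000302 in heterozygous cells). Mnd1 fell by 0.73 in heterozygous cells (adjusted p = 0.00993, and 0.207 with total counts as library size) and had a log2 fold change of -0.27 in knockout cells (adjusted p = 0.327). Meiob and Spata22, which act together on single-stranded DNA, were not called in either genotype.

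Of the 6 crossover genes, Tex11 rose, with 106 ± 8.55 CPM at d2 and 35.7 ± 5.77 CPM at e18.5 in knockout cells, and 84.1 ± 8.97 CPM at d2 and 38.5 ± 8.75 CPM at e18.5 in heterozygous cells (edgeR adjusted p = 1.64e-07 in knockout and 2.03e-05 in heterozygous cells). Hfm1, a helicase, fell to 96.4 ± 14.4 CPM at d2, against 207 ± 5.41 CPM at e18.5, in knockout cells, and to 102 ± 31.4 CPM at d2, against 213 ± 64.7 CPM at e18.5, in heterozygous cells (adjusted p = 1.87e-05 in knockout and 3.62e-05 in heterozygous cells). Msh4 fell by 0.60 in knockout and 0.59 in heterozygous cells on the log2 scale, and both calls ended with total counts as library size (adjusted p = 0.141 in knockout and 0.234 in heterozygous cells). Its partner Msh5 fell in knockout cells (-1.15, adjusted p = 0.00134) and had a log2 fold change of -0.63 in heterozygous cells (adjusted p = 0.0610). Mlh3, which cuts crossover intermediates, rose in knockout cells (0.53 ± 0.16, adjusted p = 0.00685) and had a log2 fold change of 0.02 ± 0.16 in heterozygous cells (adjusted p = 0.923). Ccnb1ip1, a ligase that acts in crossover formation, was not called in either genotype.

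Leaving out any 1 of 7 libraries kept 10 of the 14 increases and all 8 decreases in heterozygous cells, and 15 of the 17 increases and 6 of the 8 decreases in knockout cells. With total counts as library size the members called were 18 higher and 4 lower in knockout cells and 14 higher and 5 lower in heterozygous cells.

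Set against e16.5, 12 members were higher at d2 in knockout cells (20.8% of all genes) and 7 were lower (21.9%), and in heterozygous cells 10 were higher (20.5%) and 9 lower (22.7%). Syce2 (2.07 in knockout and 2.06 in heterozygous cells on the log2 scale), Mei1 (1.72 in knockout and 1.60 in heterozygous cells), Dmc1 (1.43 in knockout and 1.06 in heterozygous cells), Smc1b (1.27 in knockout and 0.80 in heterozygous cells) and Psmc3ip (1.08 in knockout and 0.95 in heterozygous cells) rose, and each of these calls held without any 1 library. Hfm1 (-1.66 in knockout and -1.34 in heterozygous cells), Tex14 (-1.52 in knockout and -1.50 in heterozygous cells), Mnd1 (-1.35 in knockout and -1.20 in heterozygous cells) and Stag3 (-0.69 in knockout and -0.95 in heterozygous cells) fell, and each of these calls held likewise. Syce3 was also called higher in both genotypes (2.05 in knockout and 3.46 in heterozygous cells), again without any 1 library. In heterozygous cells it rested on 20 counts at e16.5, so its increase there is a description and no support for a change. Calls that ended without e16.5 replicate 3 in heterozygous cells were those of Mei4, Rec114, Tex11, Trip13, Prdm9 and Rec8, that of Spata22 ended without d2 replicate 2, and in knockout cells Mei4, Tex11, Tex12 and Trip13 each ended without at least 1 library. Sycp1 rose in knockout cells (1.05 ± 0.20, edgeR adjusted p = 0.000141) and had a log2 fold change of 0.07 ± 0.20 in heterozygous cells (adjusted p = 0.794), a difference between genotypes of 0.98 ± 0.28 that did not pass the test (adjusted p = 0.113). Over the same interval 6 of 8 germ cell markers fell and 1 rose in each genotype, and 4 of 8 Sertoli cell markers rose in each. Of 10 stroma markers 6 rose and 0 fell in knockout cells, while 0 rose and 1 fell in heterozygous cells, and the part of these markers was not tested.

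**Figure D5:**
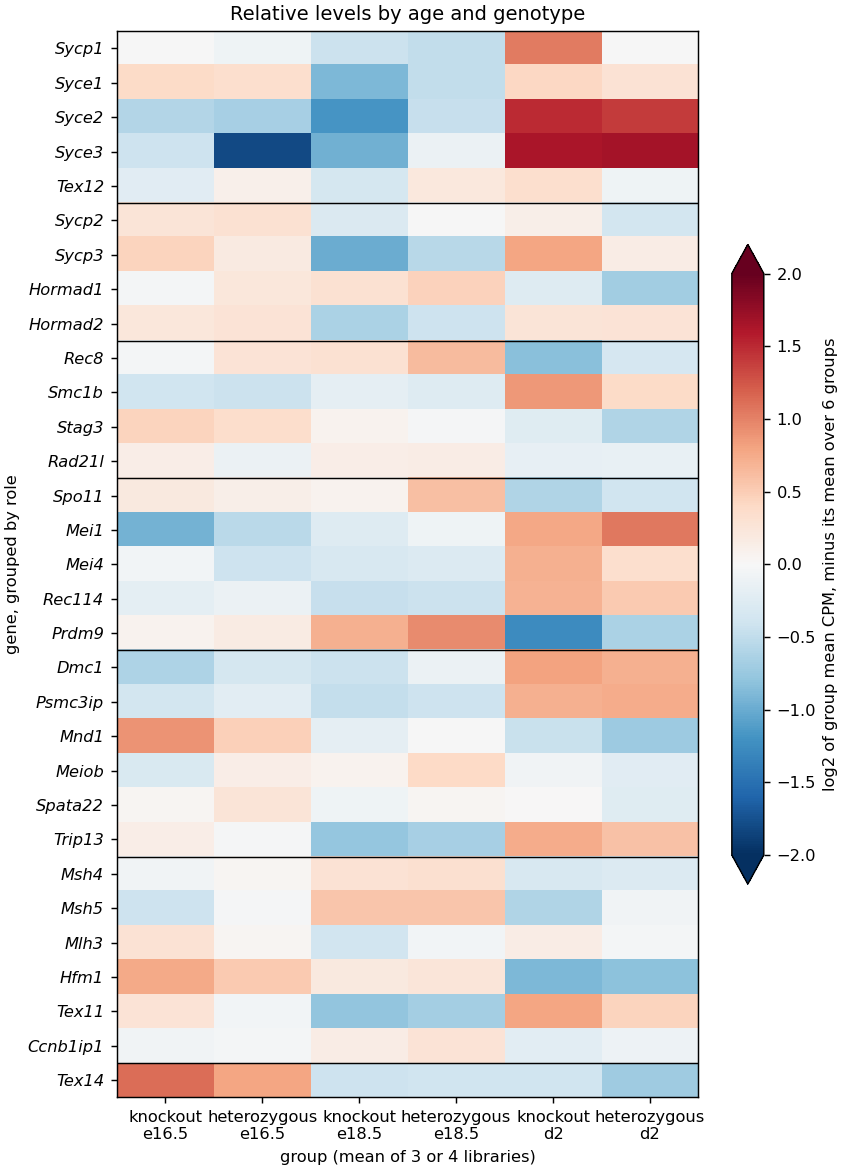
Group means of 31 genes on a log2 scale, each gene set to its own mean over the 6 groups and grouped by role (red: higher, blue: lower). Syce2 and Syce3 are highest at d2 in both genotypes, while Hfm1, Prdm9 and Rec8 are lowest there.

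Other genes of meiosis were grouped in 7 lists. Between genotypes edgeR called 0 of 66 at e16.5 and 0 of 66 at e18.5, and 3 of 65 at d2, where 2.80% of all genes were called. At an unadjusted p under 0.05 there were 5 of 66 at e16.5 (7.73% of all genes), 6 of 66 at e18.5 (11.3%) and 11 of 65 at d2 (16.2%). At d2 Dazl, an RNA-binding protein that makes germ cells competent for meiosis, rose in knockout cells (1 of 7 regulators of meiotic entry tested), with 2424 ± 649 CPM in knockout and 1584 ± 129 CPM in heterozygous cells (edgeR adjusted p = 0.0349). Dazl is also among the germ cell markers above. Of the 9 cohesin genes shared with mitosis, the kleisin Rad21 rose, with 962 ± 17.4 CPM in knockout and 719 ± 58.1 CPM in heterozygous cells (adjusted p = 0.0290), and so did the cohesin release factor Wapl (log2 fold change 0.42, adjusted p = 0.0354). These 3 calls ended with total counts as library size and without most single libraries. Dazl and Rad21 remained called only without knockout replicate 2 or heterozygous replicate 2, and Wapl only without knockout replicate 2 or heterozygous replicate 3. Stra8, the switch for meiotic entry that retinoic acid turns on, had a log2 fold change between genotypes of -0.61 at e16.5 (adjusted p = 0.746), of 0.51 at e18.5 (0.823) and of -0.42 at d2 (0.536).

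With age, Stra8 rose in both genotypes, to 29.7 ± 12 CPM at d2, against 3.41 ± 1.83 CPM at e18.5, in knockout cells and to 39.7 ± 18.0 CPM at d2, against 2.40 ± 1.54 CPM at e18.5, in heterozygous cells (edgeR adjusted p = 3.23e-05 in knockout and 2.96e-06 in heterozygous cells). The counts below, for d2 over e18.5, stand beside 25.3% of all genes higher and 29.7% lower in knockout cells, and 24.1% higher and 27.0% lower in heterozygous cells. Of 12 genes of pachytene and later stages 9 fell and 0 rose in knockout cells and 8 fell and 0 rose in heterozygous cells. Brdt, a chromatin reader of spermatocytes, had 166 ± 31.5 CPM at d2 and 960 ± 125 CPM at e18.5 in knockout cells, and 147 ± 34.5 CPM at d2 and 1017 ± 278 CPM at e18.5 in heterozygous cells. Of 11 other recombination genes tested, 6 rose and 2 fell in knockout cells and 5 rose and 1 fell in heterozygous cells. Exo1, a nuclease that trims break ends, had 92.6 ± 23.5 CPM at d2 and 21.4 ± 2.66 CPM at e18.5 in knockout cells, and 87.3 ± 26.3 CPM at d2 and 26.3 ± 6.17 CPM at e18.5 in heterozygous cells. Of 14 known brakes on meiotic genes, 9 rose and 2 fell in knockout cells and 7 rose and 3 fell in heterozygous cells. Dmrt1, which holds back meiosis in spermatogonia, had 119 ± 8.18 CPM at d2 and 18.7 ± 5.20 CPM at e18.5 in knockout cells, and 133 ± 13.6 CPM at d2 and 28.9 ± 6.85 CPM at e18.5 in heterozygous cells. The DNA methyltransferase Dnmt3a fell, with 443 ± 71.2 CPM at d2 and 1254 ± 240 CPM at e18.5 in knockout cells, and 507 ± 93.9 CPM at d2 and 1184 ± 95.1 CPM at e18.5 in heterozygous cells. Of the 8 shared cohesin genes tested across ages, 2 rose and 4 fell in knockout cells and 2 rose and 5 fell in heterozygous cells. Of 5 telomere attachment genes, 3 rose and 0 fell in knockout cells and 3 rose and 1 fell in heterozygous cells, and of 4 other axis and pairing genes 2 rose and 0 fell in knockout cells and 2 rose and 2 fell in heterozygous cells. Regulators of meiotic entry, Stra8 included, gave 3 increases and 1 decrease of 6 in knockout cells and 2 increases and 1 decrease of 6 in heterozygous cells.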

How the data were processed

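The authors deposited whole-number read counts per gene and repeat name in 1 table for each age. Per the submitters' processing notes, STAR, featureCounts, edgeR and Bowtie were used with the mm9 genome. Their roles and versions, the strand setting and the handling of reads with several matches are not given in the sources used here, so antisense or overlapping genes and near-identical copies could share counts. Per the labels' protocols, RNA of sorted cells was extracted with PicoPure and amplified with NuGEN Ovation kits from total RNA. The series text speaks of triplicates, and d2 holds 4 libraries per genotype.

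The 1217 repeat names of each table were left out of library sizes and tests. Knockout was compared with heterozygous within each age by the quasi-likelihood test of edgeR 4.0.16 in R 4.3.3, after filterByExpr (minimum count 10, minimum total 15) and TMM scaling, with Benjamini-Hochberg adjustment over all genes and a threshold of 0.05. Ages, and the difference in knockout effect between ages, were tested in a joint fit of 6 groups on 18619 genes. SE was derived from the fold change and F. Non-overlap was read on the scale of each age. All members are named, and for other lists the genes called with the smallest p. DESeq2 1.42.0, other scalings and filters, a replicate block and fits without 1 library were alternatives, and limma 3.58.1 was loaded by edgeR. The steps were tested on simulated data. Transcript lengths came from GENCODE M21, promoters from RefSeq by symbol. The members and gene lists were chosen with earlier results of these data known. Figures were drawn with matplotlib 3.10.9.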

Additional observations from a re-analysis of the deposited data

Results flagged for a closer look

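In 4 of the 62 groups of 4 libraries checked, 1 library lay far from the other three relative to the range of its group. Chance flags about 1 in 20 groups. Sycp2 had 229 CPM in knockout replicate 2 at d2 and 330 to 349 CPM in the other knockout libraries. Smc1b had 829 CPM in the same library and 1077 to 1110 CPM in the other knockout libraries. That library also held 102 CPM of Tex15. Its germ cell markers summed to 3456 CPM, against 4227 to 4797 CPM in the other knockout libraries at d2. Its stroma markers summed to 343 CPM, against 220 to 276 CPM, and its endothelial markers to 119 CPM, against 73.7 to 95.7 CPM. The part of any of these in the Sycp2 and Smc1b values was not tested. Syce2 had 115 CPM in heterozygous replicate 4 at d2 and 153 to 160 CPM in the other heterozygous libraries. Sycp3 had 148 CPM in heterozygous replicate 3 at d2 and 136 to 137 CPM in the other heterozygous libraries.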

How the results depend on the processing

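No called gene changed direction under the alternatives run, but with total counts as library size the members' median log2 fold change did in 3 comparisons. It was -0.02, against 0.15 with TMM, for knockout over heterozygous at d2, and in heterozygous cells 0.05, against -0.30, for d2 over e18.5 and 0.35, against -0.05, for d2 over e16.5. A replicate block also turned the sign of medians near 0. The median was then -0.01, against 0.01, for knockout over heterozygous at e16.5. For d2 over e16.5 in knockout cells it was -0.06, against 0.03. Of 3378 values of single genes under the alternatives, 3131 stayed on their side of the threshold, 238 lost the call and 9 gained it. Between genotypes DESeq2 called 22 genes at e16.5 and 768 at d2 (4 members), against 1 and 430 (2 members) with edgeR, and for the differences between ages 68, 369 (2 members) and 311 (1 member), against 18, 98 and 149 (0 members each). Total counts as library size gave 2 genes at e16.5, 1 member at d2 and 5 members between e18.5 and e16.5 in heterozygous cells, as did those groups fitted alone (5), and no filter gave 2 genes at e16.5. A fit of all ages gave 0, 152 (0 members) and 770 genes at e16.5, e18.5 and d2. Same-numbered libraries of both genotypes had correlations of -0.254 to 0.105, so the numbers were not taken as pairs, and a replicate block gave 2 members at e18.5 and 235 genes at d2. Without 1 library, genes called between genotypes were 1 to 25, 274 to 502 and 187 to 573 at e16.5, e18.5 and d2 (members 0 to 0, 0 to 1 and 2 to 5). In knockout cells the ranges were 4546 to 5841 (members 10 to 12) for e18.5 over e16.5, 9105 to 10271 (22 to 24) for d2 over e18.5 and 6589 to 7864 (16 to 19) for d2 over e16.5. In heterozygous cells they were 1740 to 4077 (2 to 7), 8249 to 9833 (18 to 23) and 6851 to 8346 (13 to 21). Differences between ages gave 3 to 38 (0 to 0), 31 to 226 (0 to 3) and 92 to 237 (0 to 1). The cause of these shifts was not tested. Syce3, with 20 to 337 counts per group, is limited by depth.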
